A study of Mus musculus with 2 samples.

Results

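T-box transcription factors were followed in mouse urogenital ridges collected at E14.5, which hold the Müllerian and the Wolffian duct of the embryo. The set held 9 genes (Tbx1, Tbx2, Tbx3, Tbx4, Tbx5, Tbx6, Tbx15, Tbx18 and Tbx20), chosen by name as a gene family, with earlier results of these data known. They were represented by all 19 probe sets that the platform annotation gives to one of them alone, of 45101 probe sets on the array. The heterozygous pool was Misr2+/- and the homozygous pool Misr2-/-. Both were on a mix of C57Bl/6 and 129SVEV, both came from ridges whose gonads had been discarded, and the genotype was scored with a YFP reporter. Each pool combined about 100 ridges and was measured on 1 Affymetrix array, so there were no replicates, no test between genotypes was possible, and the number of arrays limits the precision. No wild-type pool was among the samples used here, and no source used here gives the sex of the embryos. Misr2, annotated as Amhr2, encodes the receptor that binds Müllerian inhibiting substance (MIS), a hormone of the fetal testis that causes regression of the Müllerian duct, and the labels call the heterozygous ridges responsive to it and the homozygous ones not.

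T-box factors bind DNA through a shared domain, the T-box, and act as activators or repressors of genes that pattern the embryo. Tbx2 and Tbx3 are closely related repressors that keep progenitor cells from differentiating or leaving the cell cycle. In the mouse ureter, Tbx2, Tbx3 and Tbx18 are known from the mesenchyme that forms the muscular wall. BMP signalling, which shares its type I receptors and Smads with MIS, is a known inducer of Tbx2 and Tbx3 in several embryonic tissues.

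Of the 9 genes, 3 were measured, namely Tbx2, Tbx3 and, at the limit, Tbx18. To be called measured, a probe set needed 1 signal or more that reached the floor of its array, the median over all probe sets that are not controls. This floor was 116.5 on the heterozygous array and 139.4 on the homozygous one. By this rule 5 of the 19 probe sets were measured and 14 missed the floor on both arrays, while over the whole array 51.9% of probe sets and 62.8% of genes with a probe set were measured. A signal under the floor does not show that a gene is silent, since probe sets differ in how well they bind and their levels cannot be set against each other. In pools of whole ridges, fewer cells of a type and less RNA per cell cannot be told apart.

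**Figure D1:**
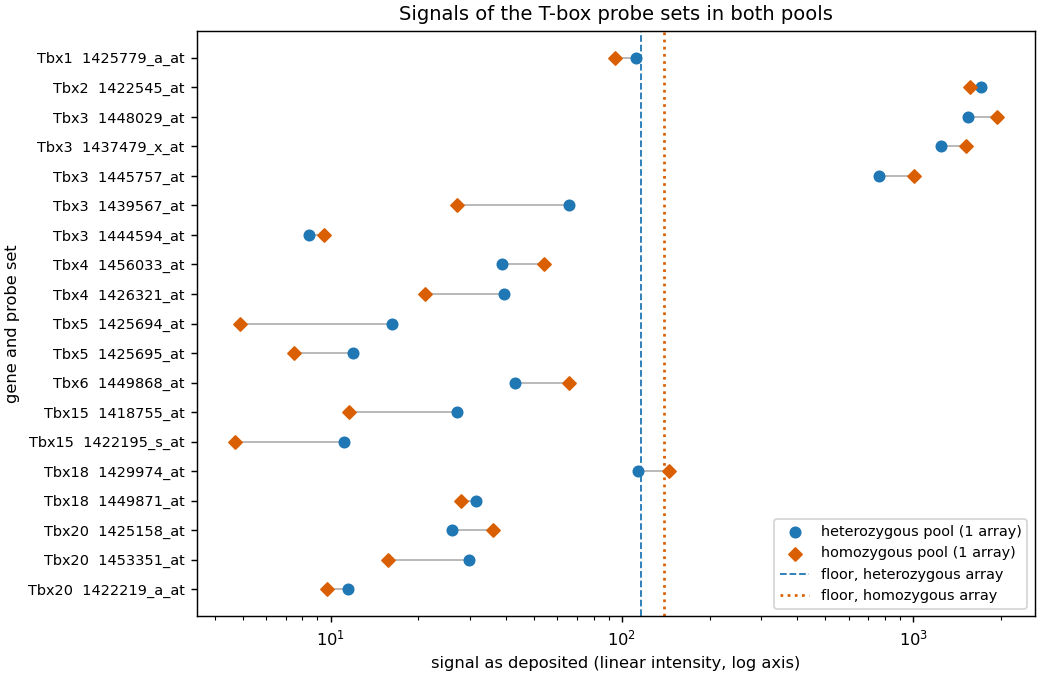
Signal as deposited (x axis, linear intensity on a log axis) of the 19 T-box probe sets (y axis) in the heterozygous pool (circles) and the homozygous pool (diamonds), 1 array each, with the floor of each array as a vertical line. The single probe set of Tbx2 and 3 of the 5 of Tbx3 lie above both floors, 1 probe set of Tbx18 lies next to them, and the other 14 lie below.

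Tbx2, which encodes a repressor of differentiation and of cell cycle inhibitors, was lower in the homozygous pool, although by less than the 1.5-fold used here as the threshold. The signal of its single probe set was 1708.6 for heterozygous ridges and 1568 for homozygous ridges. The homozygous array had the higher median, with the medians 0.26 apart on the log2 scale. Log2 differences are given as homozygous minus heterozygous relative to that shift unless stated otherwise. On this scale Tbx2 differed by -0.38, or 1.30-fold lower in the homozygous pool, and as deposited by -0.12. The sign was the same under every scaling tried, but against the hybridisation spikes, control RNAs that differ by a further 0.40 between the arrays, the value was -0.79, or 1.73-fold lower, which passes the threshold.

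The size of the Tbx2 difference is read against other genes and against technical spread. Among the 11432 measured genes 4.31% were lower in the homozygous pool by 20% or more, as were 2.66% of the 4850 genes with a mean signal of 1000 or more, and Tbx2 was 1 such gene among the 3 measured T-box genes. For 2045 genes with a mean signal of 1000 or more, log2 differences read from separate probe sets of the same gene scattered with an SD of 0.21. That spread leaves out all variation between pools, so whether the Tbx2 difference would recur in other pools was not tested. Tbx2 has no further probe set on which it could be read.

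Tbx3, the closest relative of Tbx2 and the gene of human ulnar-mammary syndrome, was at nearly the same level in both pools. Its first measured probe set went from 1549.2 in the heterozygous to 1933.6 in the homozygous pool, a log2 difference of 0.06. The second went from 1243.1 to 1515.1 (0.03) and the third from 763.5 to 1006.5 (0.14). All 3 were higher in the homozygous array as deposited, by 0.29 to 0.40, which is close to the shift of the whole array. Their mean was 0.08 ± 0.06 (SD, n = 3 probe sets of the same pair of arrays, which are not replicates of the pools). Scaled to the spikes, the first probe set of Tbx3 turned negative, to -0.34.

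The pair was also compared directly. The log2 difference of Tbx2 was 0.44 below that of the first Tbx3 probe set, with the difference of the differences ranging from -0.41 to -0.52 over the 3 measured Tbx3 probe sets. A constant scaling of an array cancels in this comparison, and under quantile normalization and loess it was -0.44 and -0.45. Its stability over scalings follows from that and is no support. Different probe sets of the same gene already disagreed with an SD of 0.29 at this signal, and without replicate pools an unequal change of Tbx2 and Tbx3 was not tested.

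Tbx18, which in the mouse is needed for the smooth muscle coat of the ureter, sat at the limit of measurement. Its brighter probe set gave 113.4 in the heterozygous pool, just under the floor, and 145.1 in the homozygous pool, just above it. It was therefore at least 1.04-fold higher in the homozygous pool (log2 0.06, but -0.35 against the spikes), and it entered the measured genes through the homozygous pool alone. Its other probe set stood at 31.6 and 28, under the floor in both. The 300 bases around its start are shown because it was the one measured gene of the set with an entry in the promoter table (RefSeq, GRCm38.p6, chr9:87731211-87731510, minus strand), with the T-box half-site core GGTGT, searched on both strands, in capitals. The Tbx4 promoter is set beside it as that of a gene under the floor which the authors nevertheless listed (chr11:85896515-85896814, plus strand), with its match to TATAAA, which reads TTTATA on the printed strand, in capitals.
Tbx18: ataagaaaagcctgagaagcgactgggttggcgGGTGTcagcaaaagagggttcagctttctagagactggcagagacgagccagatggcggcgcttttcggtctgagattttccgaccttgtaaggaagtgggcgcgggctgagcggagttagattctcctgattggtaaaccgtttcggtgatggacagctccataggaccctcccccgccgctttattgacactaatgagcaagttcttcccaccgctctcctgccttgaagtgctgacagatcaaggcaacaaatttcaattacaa
Tbx4: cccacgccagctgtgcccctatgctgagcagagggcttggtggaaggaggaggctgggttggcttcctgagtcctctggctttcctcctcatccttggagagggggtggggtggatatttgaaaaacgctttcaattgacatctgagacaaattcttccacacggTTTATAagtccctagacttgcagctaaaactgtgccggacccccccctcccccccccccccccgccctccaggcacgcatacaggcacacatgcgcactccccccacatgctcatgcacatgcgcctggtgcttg
The Tbx18 window held 1 GGTGT core and 15 CpG dinucleotides, and the Tbx4 window held 0 GGTGT cores, 1 TATAAA and 8 CpG dinucleotides. Of all 32851 promoters of that length, 41.6% hold GGTGT and 13.6% hold TATAAA on either strand, and the median is 7 CpG. These matches are descriptions of the letters and nothing is drawn from them about binding.

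The limb and lung factors Tbx4 and Tbx5 were under the floor in both pools. Tbx4, known for hindlimb and lung bud outgrowth, had signals of 38.7 (heterozygous) and 54.2 (homozygous) on one probe set and of 39.5 and 21 on the other, so that its probe sets differed in opposite directions. Tbx5, known for forelimb and heart development, gave 16.2 and 4.9 on one probe set and 11.9 and 7.5 on the other. Each of these genes lies beside a measured relative. Tbx2 and Tbx4 are neighbours on chromosome 11 and Tbx3 and Tbx5 on chromosome 5, with 0 protein-coding genes between them in the RefSeq table of GRCm38.p6.

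The other 4 genes were also under the floor in both pools. Tbx1, a regulator of the pharyngeal arches and the gene most associated with human DiGeorge syndrome, came nearest to it with 112.1 and 95 on its single probe set. Tbx6, needed in the mouse for presomitic mesoderm, gave 43 and 65.9. Tbx15, a regulator of skeletal and skin patterning, reached 27.2 and 11.6 on its brighter probe set. Tbx20, a heart factor, gave 26 and 36 on the brightest of its 3 probe sets. The others gave 29.8 and 15.7, and 11.5 and 9.7. Of the 14 probe sets that missed both floors, 4 had the higher raw signal on the homozygous array and 10 on the heterozygous array, and no difference is read from signals of this size.

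At 1.5-fold or more, 0 of the 3 measured T-box genes differed between the pools in either direction, against 2.97% of all measured genes; against the spikes the count was 1, Tbx2. Among the 5 measured probe sets the count was likewise 0, against 4.44% of all measured probe sets. With 3 measured genes these counts cannot be told from that background. The median log2 difference of the 3 genes was 0.06 (-0.35 against the spikes), beside 0.04 over all measured genes (-0.37 against the spikes). It is the value of Tbx18, a bound set by the floor, and over the 2 genes with both signals above the floor the median was -0.16.

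**Figure D2:**
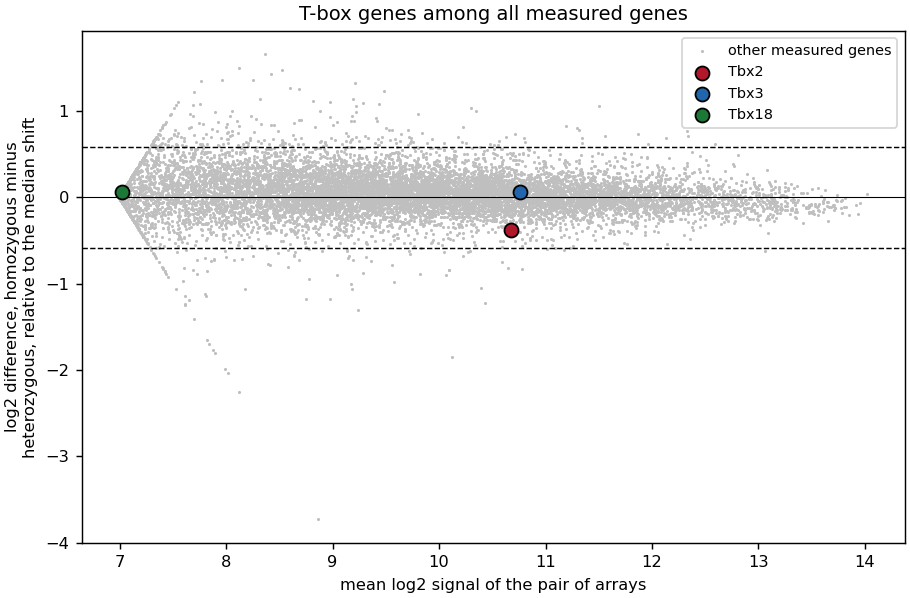
Log2 difference, homozygous minus heterozygous relative to the median shift (y axis), against the mean log2 signal of the arrays (x axis) for 11432 measured genes in grey and the 3 measured T-box genes in colour, with dashed lines at 1.5-fold. Tbx2 at -0.38 and Tbx3 at 0.06 have similar mean signals and lie between the lines, and Tbx18 lies at the floor on the left edge; against the spikes all values would be 0.40 lower.

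The authors' deposited table of fold changes listed 2 of the 19 T-box probe sets among 739, and neither reached the floor of either array. That is 10.5% of the T-box probe sets, beside 1.64% of all probe sets that are not controls. With 2 listed probe sets, both under the floors, no excess of T-box genes is read from these shares. For Tbx3 the authors' deposited table gives a signed fold of -2.947, from 71.9 in the heterozygous to 24.4 in the homozygous pool, on another probe set of the gene. The 3 measured Tbx3 probe sets lay between 0.03 and 0.14 and none of them is in that table. For Tbx4 the authors' deposited table gives -2.28, from 43.1 to 18.9, on the probe set whose homozygous signal was the lower one, while the other probe set differed the opposite way. Of all 739 listed probe sets, 503 (68.1%) missed both floors.

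Among the remaining T-box family, 6 of 8 genes looked up had a probe set and 1, Mga, was measured. Mga, which carries both a T-box and a MAX-binding domain, went from 1466.6 to 1521.9 on its brightest probe set, a log2 difference of -0.21 that turns positive as deposited. Its 3 measured probe sets ran from -0.58 to 0.24 and so disagreed in sign. Tbr1, Eomes, Tbx19, Tbx21 and Tbx22, factors of neurons, early embryo, pituitary, T cells and palate, were under the floor in both pools.

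Genes reported as targets of T-box factors were measured for 8 of 17 with a probe set. Their median was 0.17 (-0.24 relative to the spikes), beside 0.04 over all measured genes (-0.37 relative to the spikes). Of the 8 targets, 7 lay above 0 and 1 below, or 6 and 1 when Dll1, measured through the homozygous pool alone, is left out. The share of all measured genes on each side of 0 was not counted, so counts by side, here and below, only describe the lists. Dll1, a Notch ligand that Tbx6 activates in the mouse, passed 1.5-fold, against 2.08% of measured genes higher at that size, and it was at least 1.53-fold higher since its heterozygous signal of 108.9 was under the floor and the homozygous one was 212.7. Against the spikes its value was 0.21, under the threshold. Has2, a hyaluronan synthase, differed by -0.28 on its brightest probe set. Its other measured probe set differed by -0.59, past 1.5-fold, a size that 4.44% of measured probe sets reached in either direction. Cdh1, the epithelial cadherin that TBX3 represses in human melanoma cells, differed by 0.25 and Flt4, a receptor of lymphatic endothelium, by 0.24, and both turn negative against the spikes. Cdh1 is also in the duct epithelium list, of which 8 of 10 measured members lay above 0 and whose summed signal as deposited was 12135.8 for heterozygous and 16931.8 for homozygous ridges. The part of the epithelial share of the tissue in these values was not tested. Fgf10, a growth factor induced by Tbx4 and Tbx5 in the limb, was under the floor, at 32.1 and 24.3.

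Of the partners and cofactors, 9 of 12 measured genes lay below 0 and 3 above. Their median was -0.19, beside 0.04 over all measured genes (0.06 and 0.29 without removing the shift). Gata5 and Ripply3 were measured through the heterozygous pool alone, which fixed their side of 0, and without them 7 of 10 were lower. Gata5, a zinc finger factor that acts with Tbx5 and Tbx20 in the heart, passed 1.5-fold, against 0.883% of measured genes lower at that size. It went from 377.8 to 124.7 and was at least 3.24-fold lower, while its other measured probe set differed by -0.09. Ripply3, a corepressor that binds Tbx1, was at least 1.40-fold lower, from 163.4 to 139.1. Kdm6b, a histone demethylase, was 1.40-fold lower, from 2299.9 to 1962, while its other measured probe set differed by -0.16. Chd4, a chromatin remodeller that interacts with Tbx20, was 1.36-fold lower, and its 3 measured probe sets ran from -0.93 to -0.44. Against the spikes, with every value 0.40 lower, Ripply3, Kdm6b, Chd4, Tle1 and Gata6 passed 1.5-fold lower besides Gata5. So did 1442 of the 11432 measured genes on that scale.

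Among 17 measured regulators reported upstream of T-box genes, 5 lay above 0 and 12 below it (5 and 11 without Isl1, measured through the heterozygous pool alone). Their median was -0.09, beside 0.04 over all measured genes (0.17 and 0.29 without removing the shift). Past 1.5-fold in either direction were 0 of them, against 2.97% of all measured genes. Against the spikes, where every value lies 0.40 lower, Bmp4, Wnt4, Bmp2 and Isl1 passed 1.5-fold lower. On that scale 1442 of the 11432 measured genes did so as well. Bmp4, a BMP ligand of the mesenchyme, went from 705 to 579.2, a log2 difference of -0.54. Bmp2, which induces Tbx2 in the mouse heart, went from 695.6 to 659.9, a difference of -0.33. Wnt4 had a difference of -0.49 and its 2 measured probe sets agreed, the other at -0.48. Bmp7 lay on the other side with 0.45, its other probe set at 0.35. Pitx1, the hindlimb factor upstream of Tbx4, was under the floor in both pools.

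Genes of ureter mesenchyme and smooth muscle, the tissue in which Tbx2, Tbx3 and Tbx18 act in the mouse, showed 4 measured members on either side of 0, and their median was -0.05 (positive without removing the shift, at 0.21). Sox9 was 1.55-fold lower, from 211.2 to 162.6, and was the one member past 1.5-fold, against 0.883% of measured genes lower at that size. Only 1 of its 3 probe sets was measured, and the homozygous signal was near the floor of that array, 139.4. As deposited the log2 difference of Sox9 was -0.38, under the threshold. Bmp4 is in this list as well. Against the spikes Bmp4 and Myocd also passed 1.5-fold lower, as did 1442 of the 11432 measured genes. Myocd, a coactivator of smooth muscle genes, differed by -0.26 and Aldh1a2, which makes retinoic acid, by -0.15, and both turn positive as deposited.

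**Figure D3:**
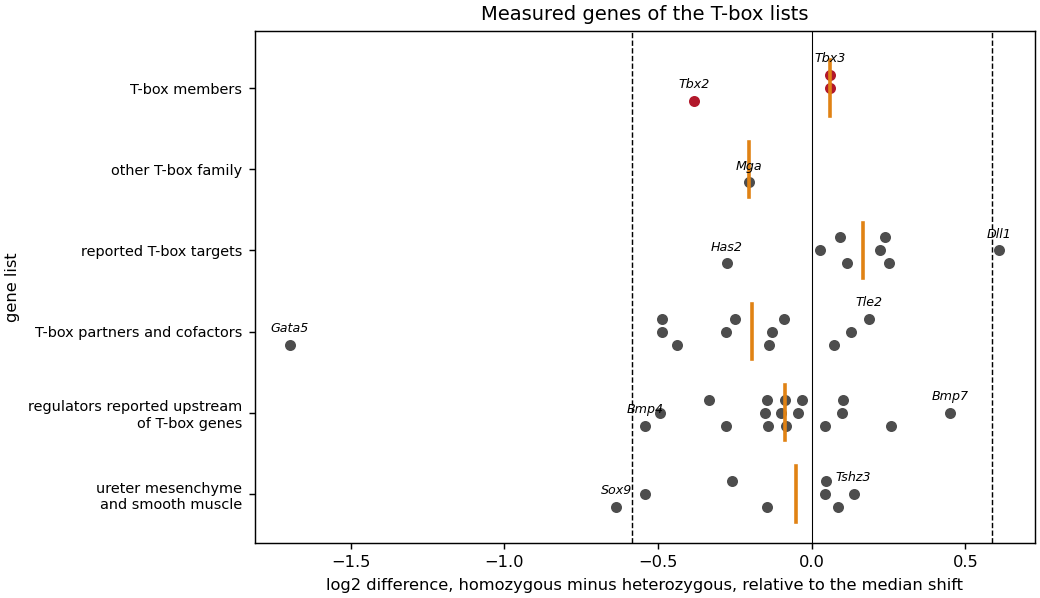
Log2 difference relative to the median shift (x axis) of the measured genes of each list (y axis), 1 point per gene from its brightest probe set, with the list median as a vertical bar, dashed lines at 1.5-fold and the lowest and highest genes named. The 3 T-box genes, Tbx18 unlabelled beside Tbx3, lie between the dashed lines, and Gata5 and Sox9 lie left and Dll1 right of them; against the spikes every point would lie 0.40 further left.

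The targeted gene followed the genotype labels, and the defining markers of the labelled tissue were measured. The brightest probe set of Amhr2 went from 1549.6 to 10.2, at least 13.3-fold lower in the homozygous pool, although no source used here places its probe sets inside or outside the deleted part. Markers of duct epithelium (10 of 11 with a probe set) and of ridge mesenchyme and coelomic epithelium (9 of 10) were measured. The ridge markers lay on both sides, with 3 above 0 and 6 below, or 3 and 5 without Amhr2. Apart from Amhr2 they ran from -1.14 (Osr1) to 0.80 (Hoxa11). Of the fetal ovary markers, 1 lay above 0 and 3 below. Heart markers (0 of 6) and metanephric kidney markers (0 of 4) were under the floor in both pools, as were Myod1, Myog and Myf5 among the limb and body wall markers, of which 3 of 9 were measured (Hoxd13, Prrx1 and Prrx2). Germ cell markers (5 of 5), fetal testis markers (4 of 4 measured, of 6) and macrophage markers (4 of 4) lay below 0 on their brightest probe sets, as Tbx2 did. Ddx4, Pou5f1, Dhh and Defb19 among them were measured through the heterozygous pool alone, which fixed their side, and with both signals above the floor the counts were 3 of 3 germ cell, 2 of 2 testis and 4 of 4 macrophage markers. Their summed signals went from 1230.7 to 679.2, from 1040.1 to 868 and from 4539 to 4611.9 as deposited. Csf1r among the macrophage markers had measured probe sets from -0.15 to 0.43. Amh, a defining product of Sertoli cells, was under the floor at 19 and 5.5. The part of these cell types in the Tbx2 difference was not tested.

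**Figure D4:**
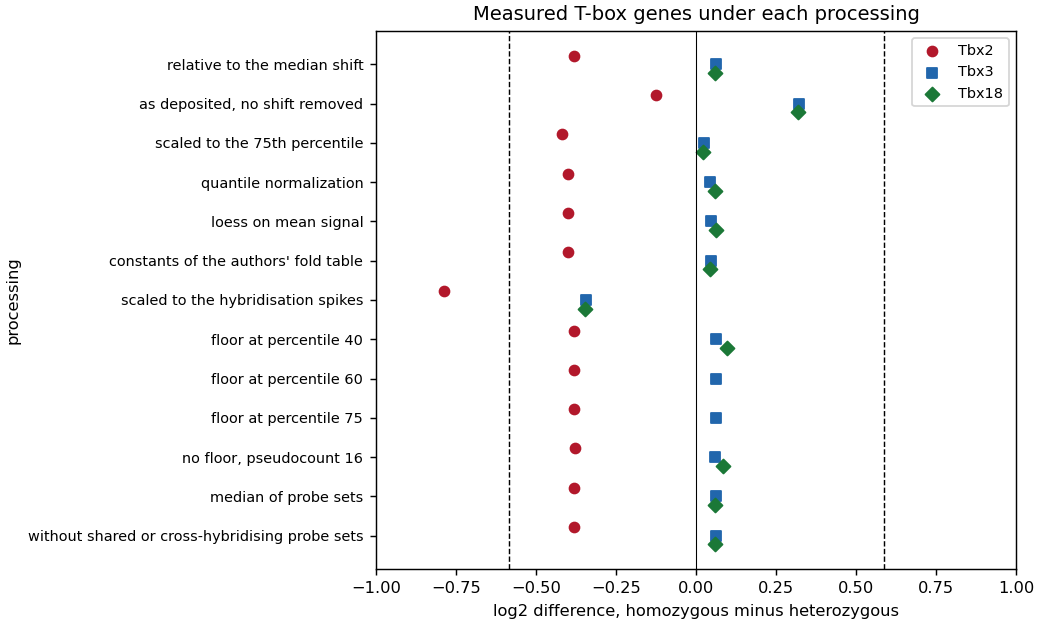
Log2 difference, homozygous minus heterozygous (x axis), of the 3 measured T-box genes under each processing (y axis), with dashed lines at 1.5-fold. Tbx2 lies left of 0 in all of them and passes the line only when scaled to the hybridisation spikes, where Tbx3 and Tbx18 also turn negative; Tbx18 is missing where a higher floor leaves it unmeasured.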

How the data were processed

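Per the labels' protocols, Trizol was used to extract total RNA, and biotin was the label. Each array has 1 deposited intensity per probe set, on a linear scale; GCOS and MAS5 are named per the submitters' processing notes, and no source used here gives the scaling or a genome build. The authors' deposited table of fold changes gives intensity values and a signed fold, treated as a score, for 739 probe sets; its intensities are those of the value table times 1.09 for the heterozygous and 0.901 for the homozygous array, and no source used here gives the rule by which they were chosen. Detection calls were not used.

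Of 45101 probe sets 64 controls were left out. The platform annotation pairs 34945 of the remaining 45037 with 1 gene symbol and 932 with several, which were not used, and 9160 are unnamed here. A signal under its floor was replaced by the floor, which makes the fold a lower bound. A gene was represented by its brightest measured probe set. Technical spread was taken from the 2 brightest measured probe sets per gene, as the SD of their disagreement over the square root of 2, which was 0.23 for 5264 genes. Up to 4 genes with the largest absolute difference were named per list, beside all T-box genes and genes a result turned on. Members and lists were chosen with earlier results of these data known. Analyses used Python 3.11.15 with pandas 2.3.3, and the procedure was tested on simulated data. With 1 array per group no p-values are given. Alternatives covered scaling, the floor, the probe set that stands for a gene and the threshold.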

Additional observations from a re-analysis of the deposited data

How the results depend on the processing

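The count of 0 T-box genes and 0 T-box probe sets past 1.5-fold held in all alternatives except 2 (probe sets were not counted where a gene was summarised by their median). Scaled to the hybridisation spikes, each count was 1, the probe set of Tbx2, at -0.79 on the log2 scale. With the threshold at a 25% difference each count was also 1, again Tbx2. The median over measured members came to 0.32 as deposited and to -0.35 against the spikes, which follows from the shift of the arrays. With floors at percentile 40, 60 and 75 it was -0.16, because 4, 2 and 2 of the 9 genes were then measured. The gene added at percentile 40 was Tbx1, with signals of 112.1 and 95. It then lay as low as Tbx2 or lower, at a signal close to the floor. Tbx2 minus Tbx3 ran from -0.45 to -0.44 over the alternatives. At 1.5-fold, 238 measured genes were higher and 101 lower; as deposited the split was 1152 and 39, against the spikes 29 and 1442, with the floor at percentile 40 it was 365 and 175, at percentile 60 143 and 62, at percentile 75 57 and 26, and when a gene's probe sets were summarised by their median 183 and 82. At a 25% difference it was 1182 and 493, and at 2-fold 27 and 25. No paired analysis was possible because each group has 1 array. The spread between pools cannot be estimated, and for 6 of the 9 genes no difference is read because their signals missed both floors.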

Other observations

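Gja1, which encodes connexin 43 and is a gene repressed by Tbx2 and Tbx3 in the mouse heart, was looked at after its values were seen. Its brightest probe set went from 6020.7 in the heterozygous to 7343.9 in the homozygous pool, a log2 difference of 0.03 relative to the median shift (negative against the spikes). Its 6 measured probe sets ran from -0.28 to 0.84, a wider range than the 3 measured probe sets of Tbx3. Cdkn1a, a cell cycle inhibitor that Tbx2 represses, had differences of 0.09 and 0.27 on its 2 measured probe sets, from 1134 to 1446.7 on the brighter one, and both turn negative against the spikes. Vcan, the matrix proteoglycan versican, had 4 measured probe sets from -0.13 to 0.12.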
